A study of Mus musculus with 1536 samples.

Results

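Lymphatic endothelial cells (LECs) with the least immediate early gene (IEG) RNA were compared with those that held the most. The members were 85 cells, 10.1% of the adult cells in the deposited matrix, and were chosen by the mean of the deposited values of 8 IEGs per cell, *Fos*, *Fosb*, *Jun*, *Junb*, *Egr1*, *Atf3*, *Ier2* and *Zfp36*; a value is the natural log (ln) of 1 plus reads per 10000 reads of that cell. The 85 cells with the lowest mean are called IEG-low, and the 85 with the highest mean IEG-high. The cells came from the nasopharyngeal mucosa of adult C57BL/6 mice aged 10–12 weeks, of both sexes, without treatment or transgene in the labels. Tissue of 30 mice was pooled and digested with collagenase IV, dispase and DNase I at 37 °C for 30 min. CD31+PDPN+ cells were then sorted 1 to a well for Smart-seq3, a method that copies whole transcripts and keeps the wells apart. Neither the labels nor the column names give the mouse of a cell, so the adult cells are 1 sample. All differences below therefore describe these cells, with no test, no P value and no error between animals, and because the ends were selected on RNA of the same libraries, each ratio is a description of that choice.

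IEGs are transcribed within minutes of a stimulus without new protein synthesis, and their RNAs decay quickly. Many encode transcription factors of the AP-1 (*Fos* and *Jun*), Egr and Atf families, while others, such as *Zfp36*, shorten the life of unstable mRNAs. Enzymatic digestion of tissue at body temperature is a well-known trigger of this programme in endothelial cells, as are growth factors, cytokines and flow. LECs line lymphatic vessels. Their identity rests on the transcription factor *Prox1*, initial (capillary) vessels are rich in the hyaluronan receptor *Lyve1*, and collecting vessels and valves hold less of it.

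The matrix held 23168 genes, and 7433 to 3.52e+06 reads per cell with a median of 350746. The mean of the 8 genes, the score, had a median of 2.41 over all cells and did not form separate classes. Counted in steps of 0.25, 6.41% of the cells lay below 0.25, 6.41% in the next step and 3.56% between 1 and 1.25, and the fullest step, from 2.75 to 3, held 12.4%. The IEG-low scores ran from 0.0274 to 0.392 with a median of 0.199, and the next cell outside had 0.395. The IEG-high scores ran from 3.34 to 4.24 with a median of 3.59. Within 0.05 of the lower limit lay 13 cells inside and 10 outside, so the limit cuts a continuous range.

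The 8 genes together took between 0.245 and 8.35 reads per 10000 in the IEG-low cells, with a median of 2.20, and between 272.2 and 856.4 in the IEG-high cells, with a median of 490. Cells between the ends had a median of 163.6. *Fos*, the dimer partner of the *Jun* proteins, had ln values of 0 to 2.08 in IEG-low cells (median 0.345) and 3.84 to 6.28 in IEG-high cells (median 5.23). It was found in 83 of the 85 IEG-low cells, so the low end was not a set of cells without *Fos* RNA. *Atf3*, a stress-induced repressor of the same protein class, had medians of 0.0734 and 4.11, and *Zfp36*, which binds AU-rich mRNAs for decay, had medians of 0.0804 and 3.86. *Ier2* was the sparsest, found in 27 IEG-low and 83 IEG-high cells. The values of these 8 genes set the ends and are no finding.

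**Figure D1:**
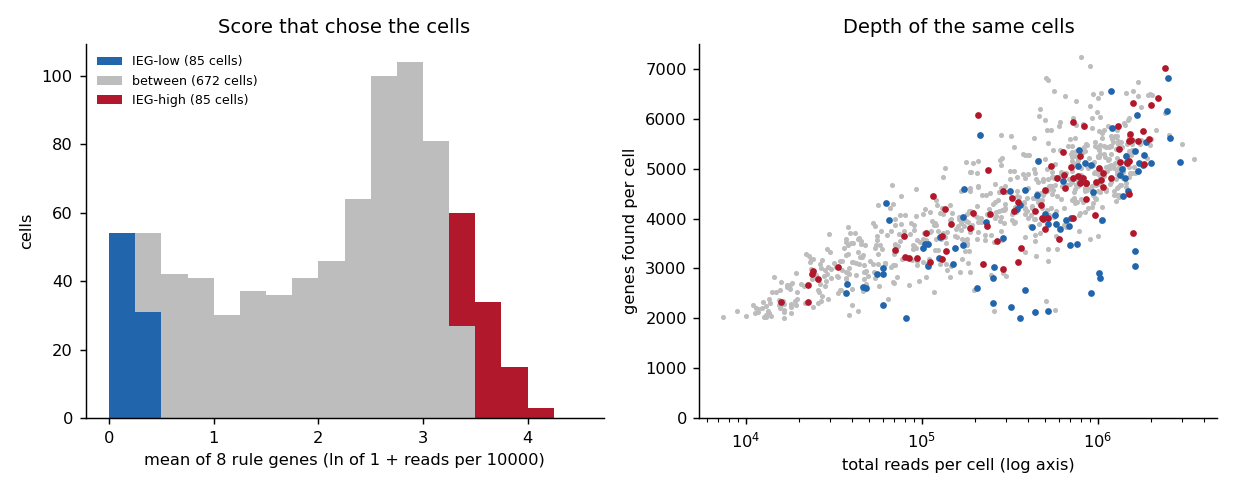
Left, number of cells in steps of 0.25 of the score, the mean ln value of the 8 genes that chose the cells, with the 85 IEG-low cells in blue, the 85 IEG-high cells in red and the others in grey. Right, genes found against total reads (log axis) for the same cells; both ends cover a similar range of reads, and a group of IEG-low cells lies below the others, with few genes for its reads.

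Depth was close at both ends. Total reads ran from 37115 to 2.93e+06 in the IEG-low cells (median 525573) and from 15830 to 2.43e+06 in the IEG-high cells (median 544548), both above the 295130 of the cells between them. Genes found per cell ran from 2001 to 6816 (median 3966) in the IEG-low and from 2321 to 7007 (median 4454) in the IEG-high cells. After each cell was thinned to 20000 reads, the medians were 2690 genes in 85 IEG-low cells and 2876.5 in the 84 IEG-high cells deep enough. Over all cells, Spearman's rank correlation of the score was 0.065 with total reads, 0.147 with genes per cell and -0.305 with the mitochondrial share of reads, as a description of cells that share one matrix. The mitochondrial share had a median of 2.36% in IEG-low, 1.75% in the other and 1.40% in IEG-high cells, whereas the share of ribosomal protein genes was 7.40%, 7.98% and 7.70%.

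Among the IEG-low cells, 12 stood apart by *Malat1*, an abundant long non-coding RNA that stays in the nucleus (GRCm38, chr19:5795690-5802672, minus strand). Their *Malat1* values ran from 0.116 to 0.600, and those of the other 73 IEG-low cells from 2.42 to 4.85, with no cell between. No IEG-high cell had a value under 1 (range 2.51 to 5.32), and 5 (0.744%) of the cells between the ends did. The 12 are 14.1% of the IEG-low cells, with an exact 95% interval of 7.51–23.4% that covers counting error only. The 12 cells held 81548 to 1.63e+06 reads and a median of 2408 genes, against 4194 genes in the other IEG-low cells. All of them had fewer than 2000 genes at 20000 reads, as did 3 further IEG-low cells, 2 IEG-high cells and 19 (3.05%) of the others with that depth. Their reads were richer in ribosomal protein RNA (median 13.9% against 7.25%) and in mitochondrial RNA (3.56% against 2.29%). *Neat1*, another nuclear-retained RNA, had a median of 0.148 in them and 2.47 in the other 73. Yet *Cdh5*, the VE-cadherin of endothelial junctions, was found in 12 of the 12 and *Prox1* in 10, and their median scores were close, 0.163 and 0.205. The *Malat1* limit of 1 was set after these values were seen. The medians of the IEG, feedback, chaperone, pan-LEC, capillary and mitochondrial lists are given with and without these cells below.

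RNA of the sex chromosomes also differed between the ends. *Xist*, the RNA of the inactive X chromosome, was found without a Y-linked gene in 26 of the 85 IEG-low cells (30.6%, exact 95% interval 21–41.5%) and in 7 of the 85 IEG-high cells (8.24%, 3.38–16.2%). A Y-linked gene (*Ddx3y*, *Uty*, *Kdm5d* or *Eif2s3y*) without *Xist* was found in 36 IEG-low cells (42.4%) and 60 IEG-high cells (70.6%). Neither signal was found in 18 and 13 cells, and 10 of the 18 were among the 12 cells of low *Malat1*. Seen the other way, the median score was 1.54 in the cells with *Xist* alone and 2.53 in those with a Y-linked gene alone. The male and female mice cannot be told apart from separate batches of tissue here, because pooling was the only layout described. Column numbers, cut into runs of 96 because the study sorted into plates of 96 wells, showed further unevenness, although no label says that numbers follow plates. IEG-low cells made up 20 of the 90 cells of their fullest run (22.2%) and 0 of the 20 in another, and IEG-high cells made up 16 of the 77 cells in 1–96. Both ends were therefore also drawn within each run, and within each of the *Xist* and Y-linked classes.

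**Figure D2:**
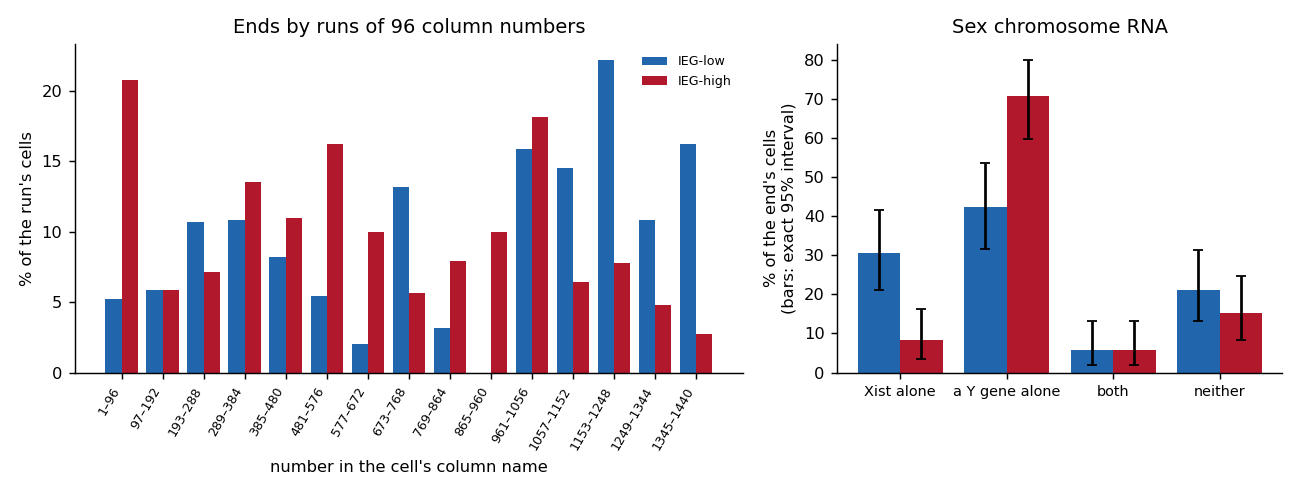
Left, percentage of the cells in each run of 96 column numbers that were IEG-low (blue) or IEG-high (red), with IEG-low cells at most 22.2% of a run. Right, percentage of each end's 85 cells with *Xist* RNA alone, a Y-linked gene alone, both or neither, with exact 95% intervals for counting error; the IEG-low end held more cells with *Xist* alone (30.6% against 8.24%).

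Both ends met the label of LECs. *Prox1* and *Cdh5* were both found in 83 of the 85 IEG-low and 84 of the 85 IEG-high cells. *Ptprc*, the leukocyte antigen CD45, and *Cd3e* were at 0 in every cell, as were the epithelial genes *Epcam* and *Krt8* at both ends. Of the marker lists for immune (5 genes), fibroblast (5), mural (5) and Schwann cells (4), no IEG-low cell held 3 or more genes of any. Among the IEG-high cells, 1 held 3 or more fibroblast genes. With *Ptprc* and *Cd3e* at 0 everywhere, the immune list could reach 3 only through *Cd68*, *Lyz2* and *C1qa* together. Only 2 epithelial genes are in the matrix, so that list could not reach 3. The highest summed level in an IEG-low cell was 16.5 reads per 10000 for immune, 2.26 for fibroblast, 2.39 for mural and 0.641 for Schwann markers; in IEG-high cells these were 19.3, 132.98, 7.75 and 1.5. Blood endothelial markers, 7 genes that LECs partly share, summed to medians of 9.30 and 7.96. At least 3 of them were found in 42 IEG-low and 48 IEG-high cells.

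Of the genes outside the rule, 5426 were found in at least 30% of all cells and were compared. A ratio is the log2 of mean reads per 10000 plus 1 in IEG-low cells over the same in IEG-high cells, and a gene was counted as lower or higher past 1.5-fold. On this scale, 3.65% of the genes were lower in the IEG-low cells and 2.71% were higher. Counts in the lists below are to be read beside these shares, and 1 gene past 1.5-fold in a short list says little about that list. The 2 sides differed in size. Past 2-fold lay 92 lower and 12 higher genes, and past 4-fold 29 lower and 0 higher. The median ratio of all genes was 0.08, and since the 8 rule genes took up several percent of the reads of IEG-high cells, centring on that median moved the shares to 4.26% lower and 1.57% higher, and leaving those genes out of the total to 4.0% and 1.94%. Without the 12 cells of low *Malat1* the shares were 3.48% and 2.82%, and 92.9% of the lower and 72.8% of the higher genes were past 1.5-fold again.

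Of the 12 most negative ratios, 8 belonged to IEGs outside the rule or to feedback regulators, and the other 4 were those of *Klf4*, *Rnd1*, *Dnajb1* and *Sertad1*. Promoter windows of the rule gene *Fos* and of 4 of the 12, *Socs3*, *Nr4a1*, *Dusp1* and *Ppp1r15a*, are shown because IEG promoters are known for the cyclic AMP response element (CRE) that CREB and Atf proteins bind. Each is the RefSeq window from 250 bases before to 50 bases after 1 annotated start site of the gene on GRCm38.p6, read along the gene's strand. For *Socs3*, *Nr4a1* and *Dusp1* this site lies inside the gene's outer limits in GENCODE, and windows of other start sites are not shown. Capitals mark the CRE (TGACGTCA), its core (TGACG), an AP-1 site (TGANTCA), a CArG box and a TATA box (TATAAA), each searched on both strands, so that the core can also read CGTCA; a full CRE holds the core once on each strand. *Fos* lies at chr12:85473640-85473939 (plus), *Socs3* at chr11:117969317-117969616 (minus), *Nr4a1* at chr15:101266596-101266895 (plus), *Dusp1* at chr17:26508423-26508722 (minus) and *Ppp1r15a* at chr7:45526219-45526518 (minus).
Fos: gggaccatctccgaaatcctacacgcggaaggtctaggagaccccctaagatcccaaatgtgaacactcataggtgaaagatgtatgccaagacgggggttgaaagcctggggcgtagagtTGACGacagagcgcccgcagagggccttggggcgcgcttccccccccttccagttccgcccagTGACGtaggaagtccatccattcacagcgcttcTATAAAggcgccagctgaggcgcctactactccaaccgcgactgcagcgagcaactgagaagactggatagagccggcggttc
Socs3: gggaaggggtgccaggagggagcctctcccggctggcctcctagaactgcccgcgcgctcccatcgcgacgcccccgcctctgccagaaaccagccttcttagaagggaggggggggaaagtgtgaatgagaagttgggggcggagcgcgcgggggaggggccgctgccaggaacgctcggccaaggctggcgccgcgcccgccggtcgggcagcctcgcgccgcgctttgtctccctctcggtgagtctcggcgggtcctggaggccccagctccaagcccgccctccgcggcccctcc
Nr4a1: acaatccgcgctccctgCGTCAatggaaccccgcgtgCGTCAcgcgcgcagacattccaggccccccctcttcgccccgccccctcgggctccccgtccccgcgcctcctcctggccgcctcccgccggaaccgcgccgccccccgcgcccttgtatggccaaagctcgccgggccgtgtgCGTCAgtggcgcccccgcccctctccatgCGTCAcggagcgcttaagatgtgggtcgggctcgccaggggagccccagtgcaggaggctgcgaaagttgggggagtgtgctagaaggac
Dusp1: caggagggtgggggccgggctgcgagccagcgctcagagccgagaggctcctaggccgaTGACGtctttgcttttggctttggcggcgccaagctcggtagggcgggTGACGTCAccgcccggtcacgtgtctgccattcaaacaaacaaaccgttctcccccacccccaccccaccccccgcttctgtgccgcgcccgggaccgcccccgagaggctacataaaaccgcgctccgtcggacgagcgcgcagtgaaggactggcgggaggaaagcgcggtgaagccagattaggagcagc
Ppp1r15a: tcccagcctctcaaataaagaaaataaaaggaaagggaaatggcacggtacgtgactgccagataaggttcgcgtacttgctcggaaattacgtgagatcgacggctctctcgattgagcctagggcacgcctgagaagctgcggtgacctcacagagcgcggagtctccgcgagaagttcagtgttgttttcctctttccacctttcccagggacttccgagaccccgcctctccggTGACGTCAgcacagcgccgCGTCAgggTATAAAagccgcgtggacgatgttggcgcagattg
A full CRE stood in the windows of *Dusp1* and *Ppp1r15a*, and the core alone stood in those of *Fos* (2 times) and *Nr4a1* (4 times). The window of *Socs3*, the gene with the most negative ratio, held 0 of the motifs, and that of *Klf4*, not shown, held the core 1 time. Windows were given for 23 of the 33 listed IEGs outside the rule, and 4 of these (17.4%, *Btg2*, *Maff*, *Plk2* and *Ppp1r15a*) held a full CRE. Among 19 windows of feedback regulators 3 did (15.8%, *Dusp1*, *Dusp8* and *Errfi1*), and among 14 of pan-LEC genes 0. The share was 3.90% of the 4175 windows of genes compared and 2.03% of all 27025 windows. The core was commoner everywhere, in 13 of the 23 IEG windows (56.5%), 39.3% of genes compared and 23% of all windows. An AP-1 site stood in 1 of the 23 IEG windows and in 8.97% of all windows, and a TATA box in 6 of the 23 and in 15.7%. Of the rule genes, 6 had a window, 4 of them with the core, 0 with a full CRE and 1, *Zfp36*, with a CArG box, the site of serum response factor, which 1.81% of all windows hold. *Egr1* and *Ier2* had no window. The letters describe these windows and show neither binding nor a cause.

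IEGs outside the rule were lower in the IEG-low cells almost without exception. The list held 35 symbols for 33 genes, since *Cyr61* and *Ctgf* also stood in it as *Ccn1* and *Ccn2*. All 33 are in the matrix, and 25 were compared; 23 of the 25 were lower and 0 higher, against 3.65% and 2.71% of all genes, and the median ratio was -1.73. *Nr4a1*, an orphan nuclear receptor, had ln values of 0 to 1.15 in IEG-low cells (median 0.0068) and of 0 to 4.50 in IEG-high cells (median 2.28). Means were 0.108 and 15.6 reads per 10000, a ratio of -3.91 or 15-fold. Of the 85 IEG-high cells, 22 lay at or below the highest IEG-low value, 6 of them at 0, and the others lay above every IEG-low cell.

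*Ppp1r15a* (Gadd34), the phosphatase subunit that restarts translation after stress, ranged from 0 to 2.48 with a median of 0.0824 in IEG-low and from 0.285 to 4.87 with a median of 3.17 in IEG-high cells. Its ratio was -4.09, and it was found in 73 and 85 cells. *Cyr61* (*Ccn1*), a secreted matricellular protein and YAP target, ranged from 0 to 3.25 (median 0.093) and from 0 to 5.60 (median 2.90), with a ratio of -4.11 and a wide overlap of the ends. *Btg2*, an antiproliferative factor that recruits deadenylase, and *Ier3*, a survival factor, had ratios of -2.96 and -2.97. *Sgk1*, a serum- and glucocorticoid-induced kinase, had -2.68. The smallest differences in this list were those of *Jund*, the AP-1 member least dependent on a stimulus (-0.55), and the clock gene *Per1* (-0.27), which alone were within 1.5-fold. *Sertad1*, a cell cycle cofactor in no list, was found in 49 IEG-low and 85 IEG-high cells, with medians of 0.0165 and 2.45 and a ratio of -3.03. *Rnd1*, a small GTPase also in no list, had medians of 0.00995 and 2.29 and a ratio of -3.31.

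The 8 listed IEGs that missed the filter of 30% were also found in fewer IEG-low cells where both ends held them. *Egr2* was found in 8 IEG-low and 34 IEG-high cells, *Egr3* in 2 and 19, *Nr4a3* in 1 and 23, *Fosl1* in 3 and 6, and *Arc* in 0 and 1. Because the filter ran over all cells, a gene present mainly in high cells could still miss it, so the counts of genes compared do not cover the whole list.

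**Figure D3:**
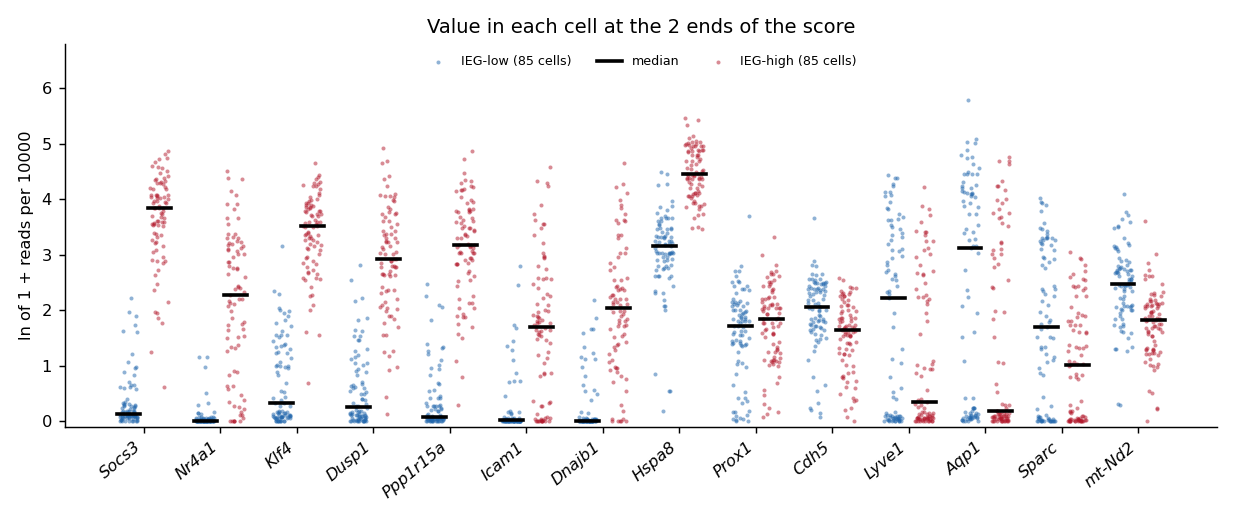
The ln value of 14 genes in each of the 85 IEG-low (blue) and 85 IEG-high (red) cells, with the median as a black line. *Socs3* to *Hspa8* lie lower in the IEG-low cells, and *Prox1* lies level. *Lyve1* and *Aqp1* spread from 0 to above 4 at both ends, and *Sparc* does so in the IEG-low cells only. *Lyve1*, *Aqp1* and *Sparc* have more high values in the IEG-low cells.

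Feedback regulators that end signalling or destroy mRNA went with the IEGs. Of 23 listed, 14 were compared, 10 lower and 0 higher, against 3.65% and 2.71% of all genes, and the median ratio was -1.20. *Socs3* (chr11:117966079-117970047, minus strand), the inhibitor of cytokine signalling through JAK and STAT3, had the most negative ratio of all 5426 genes. Its ln values were 0 to 2.22 in IEG-low cells (median 0.135) and 0.623 to 4.88 in IEG-high cells (median 3.85), and its means were 0.690 and 47.6 reads per 10000, a ratio of -4.84 or 28.7-fold. The ranges overlapped, with 15 IEG-low cells at or above the lowest IEG-high value and 7 IEG-high cells at or below the highest IEG-low value. *Dusp1*, the phosphatase that inactivates p38 and JNK, ranged from 0 to 2.81 (median 0.261) and from 0.129 to 4.93 (median 2.92), with a ratio of -3.54. Its exons overlap those of *Ergic1* on the other strand, and the strand setting of the counting is not stated. *Rgs16*, which switches off G-protein signals, had medians of 0.0568 and 2.89 and a ratio of -3.90. The NF-kB inhibitors *Nfkbiz* (-2.85) and *Nfkbia* (-1.97) were lower too, *Nfkbia* while being found in every cell of both ends. The Sprouty-related gene *Spred2* (0.05), *Spry2* (-0.13), *Errfi1* (-0.28) and the *Zfp36* relative *Zfp36l2* (0.10) were within 1.5-fold. Of the 9 that missed the filter, *Spred1* was found in 18 IEG-low and 14 IEG-high cells, with means of 0.427 and 0.0975 reads per 10000. The others were found in more IEG-high than IEG-low cells, such as *Dusp5* (9 and 38) and *Tnfaip3* (6 and 25).

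The inflammatory genes compared were lower to different degrees. Of 22 listed, 21 are in the matrix and 9 were compared. All 9 ratios were below 0, and 4 were lower past 1.5-fold and 0 higher, against 3.65% and 2.71% of all genes. The median was -0.50. It was -0.15 with ends drawn within runs of column numbers, -0.32 within cells with a Y-linked gene alone and -0.50 within cells with *Xist* alone. *Icam1*, the leukocyte adhesion receptor, ranged from 0 to 2.79 in IEG-low cells (median 0.0135) and from 0 to 4.57 in IEG-high cells (median 1.70), with a ratio of -2.89. *Irf1*, a transcription factor of interferon and NF-kB responses, had medians of 0.0329 and 2.23 and a ratio of -2.52. *Cebpd* (-0.99) and *Selp*, the P-selectin of platelet and leukocyte rolling (-0.77), followed. *Nfkb1* (-0.03), *Nfkb2* (-0.12), *Cebpb* (-0.09), *Relb* (-0.35) and *Birc3* (-0.50) were within 1.5-fold. Among the 12 not compared, the cytokine *Il6* was found in 4 IEG-low and 11 IEG-high cells, the chemokine *Cxcl1* in 9 and 22, and *Ptgs2*, the inducible cyclooxygenase, in 0 and 2, whereas *Csf3* was found in 4 and 4 and *Cxcl10* in 1 and 0.

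Among the gene lists, chaperones held the most lower genes by number after the IEGs. Of 20 heat shock and chaperone genes 17 were compared, 14 lower and 0 higher, against 3.65% and 2.71% of all genes, with a median of -1.19. *Hspa8*, the constitutive HSC70, was found in every cell of both ends. Its ln values were 0.192 to 4.49 in IEG-low cells (median 3.16) and 3.47 to 5.47 in IEG-high cells (median 4.45), and its means were 24.9 and 96.5 reads per 10000, a ratio of -1.91. *Dnajb1*, the HSP40 that works with inducible HSP70, had medians of 0.00809 and 2.04 and a ratio of -3.24, with the ends overlapping below 2.2. *Hsp90aa1*, the inducible HSP90, had -1.94, *Hspb1* -1.56 and *Hspa5*, the chaperone of the endoplasmic reticulum, -1.19. The constitutive *Hsp90ab1* was closer to level, at -0.65. The 3 within 1.5-fold were the mitochondrial *Hspe1* (-0.24) and *Hspd1* (0.21) and the endoplasmic *Hsp90b1*, whose ratio was positive (0.57). *Hspa1a*, found in 10 and 36 cells, missed the filter, and its near-identical copy *Hspa1b* had -1.77; reads of this pair may have been split or lost in counting.

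Genes of the integrated stress and p53 responses were lower in 7 of 12 compared and higher in 0, against 3.65% and 2.71% of all genes. Their median of -0.67 came within 1.5-fold in 7 of the 18 other settings. *Cdkn1a*, the p21 inhibitor of the cell cycle, had ln values of 0 to 2.31 in IEG-low cells (median 0.0149) and 0 to 3.42 in IEG-high cells (median 2.06), with a ratio of -2.40. *Hmox1*, heme oxygenase 1, and *Gdf15*, a stress-induced cytokine, had ratios of -1.91 and -1.82, but their medians were near 0 at both ends (*Hmox1* 0 and 0.089, *Gdf15* 0 and 0.0203). Their differences thus rested on a subset of IEG-high cells. *Atf4*, the factor at the centre of the integrated stress response, had medians of 0.794 and 2.04 and a ratio of -1.61. The p53 target *Mdm2* (-0.08) and the antioxidant gene *Nqo1* (-0.06), as well as *Trib3* (0.10) and *Ddit4* (0.04), were level.

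Shear-responsive genes differed among themselves. Of 14 flow and Klf genes 12 were compared, 4 lower (33.3%) and 1 higher (8.33%), against 3.65% and 2.71% of all genes, with a median of -0.23. *Klf4*, a Krüppel-like factor of laminar flow, ranged from 0 to 3.15 (median 0.325) in IEG-low and from 0.681 to 4.65 (median 3.51) in IEG-high cells, and *Klf2*, its close relative, had medians of 0.0535 and 2.17. Their ratios were -3.68 and -2.37. *Id3* and *Id1*, targets of BMP signalling, had -1.88 and -1.25. Other flow genes, *Nos3* (-0.09), *Thbd* (0.19) and *S1pr1* (0.26), were within 1.5-fold. *Sox18*, which switches on *Prox1* in the embryo, was the exception on the higher side. It ranged from 0 to 3.32 in IEG-low cells (median 1.39) and from 0 to 2.62 in IEG-high cells (median 0.340), a ratio of 1.08.

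The genes with the most positive ratios encoded matrix proteins, membrane channels and capillary LEC genes, and their ranges overlapped widely. *Sparc*, a collagen-binding matricellular protein, had ln values of 0 to 4.02 in IEG-low cells (median 1.70) and 0 to 3.04 in IEG-high cells (median 1.01), and was found in 72 cells of each end. The ratio was 1.40, or 2.63-fold. *Fbln2*, a fibulin of elastic fibres, had medians of 1.28 and 0.331 and a ratio of 1.30, and *Col18a1*, the source of endostatin, had 1.28, 0.817 and 1.08. *Igfbp4* (1.01), an IGF-binding protein, and *Angpt2* (0.99), the Tie2 ligand that LECs make, belonged to the same range.

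*Kcnj8*, a subunit of ATP-sensitive potassium channels, was found in 45 IEG-low and 25 IEG-high cells, and *Mrc1*, the mannose receptor CD206, in 42 and 32. Their highest values were 3.77 and 3.75 in IEG-low cells against 2.40 and 1.79 in IEG-high cells, with ratios of 1.29 and 1.24. The medians of *Mrc1* were 0 at both ends, so its difference lay in the cells with high values. *Gpihbp1*, which carries lipoprotein lipase on capillaries, was found in 69 and 52 cells, with medians of 1.42 and 0.0255 and a ratio of 1.17.

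*Lyve1* (chr7:110850607-110863239, minus strand) ranged from 0 to 4.44 in IEG-low cells (median 2.22) and from 0 to 4.23 in IEG-high cells (median 0.348). The water channel *Aqp1* ranged from 0 to 5.79 (median 3.12) and from 0 to 4.76 (median 0.189). Their ratios were 1.06 and 1.21. Both genes had many cells near 0 and many above 2 at each end, so the median followed the share of cells on either side. With a *Lyve1* value of at least 1 counted as Lyve1-high, 48 of the 85 IEG-low cells (56.5%), 48.4% of the others and 34 of the 85 IEG-high cells (40%) were Lyve1-high, and 3, 42 and 8 cells lay within 0.25 of that limit. Within the Lyve1-high cells the ratio of *Aqp1* was 0.60, and within the others 1.94. Within cells with *Xist* alone the ratio of *Lyve1* was 0.28, within those with a Y-linked gene alone 1.18. The most positive and the most negative ratios held within these classes to different degrees. *Socs3* stayed between -4.73 and -5.10 in Lyve1-high, other, *Xist* and Y-linked cells, and *Sparc* between 1.14 and 1.63.

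Lists of LEC genes extended this. All 19 pan-LEC and endothelial genes were compared, 6 higher and 0 lower, against 2.71% and 3.65% of all genes. Their median was 0.45 against 0.08 for all genes, and 18 of the 19 ratios were above 0, against 3509 of 5426. The higher genes were *Reln* (0.95), a secreted guidance protein of LECs, *Mmrn1* (0.86), *Maf* (0.86), *Cdh5* (0.62), the VEGF-C co-receptor *Nrp2* (0.61) and the venous factor *Nr2f2* (0.59). After centring on the median of all genes, *Cdh5*, *Nrp2* and *Nr2f2* came within 1.5-fold, and the list's median was 0.37. *Mmrn1* ranged from 2.69 to 5.0 in IEG-low cells (median 3.94) and from 0.708 to 4.27 in IEG-high cells (median 3.37). *Prox1* was level, with ranges of 0 to 3.70 (median 1.72) and 0.0737 to 3.32 (median 1.84) and a ratio of -0.15. The VEGF-C receptor *Flt4* (0.50), *Pecam1* (0.45) and *Pdpn* (0.24), both targets of the sort gate, and the chemokine *Ccl21a* (0.32) lay within 1.5-fold.

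The capillary list and the precollecting and collecting list mix the study's markers with leading genes of earlier clusters of these cells. Both lists are thus not independent of these data. The study itself annotated precollecting LECs by *Foxp2* and *Lyve1*. Of 10 capillary LEC markers 6 were compared, 4 higher (*Aqp1*, *Gm525*, *Lyve1* and the scavenger receptor *Stab2*, 0.74) and 0 lower. Among all genes 2.71% were higher and 3.65% lower. The median of the capillary list was 0.90. In members with *Lyve1* of at least 1 the median was 0.58, and against all other cells it was 0.43. Of the 4 not compared, *Ptx3* was found in 29 IEG-low and 9 IEG-high cells, *Itih5* in 31 and 22, *Cyp4b1* in 26 and 25 and *Ptn* in 22 and 26. All 10 precollecting and collecting markers were compared, 2 lower and 0 higher, against 3.65% and 2.71% of all genes, with a median of 0.14. *Apoe*, the lipid carrier, and *Igfbp5* were the 2 lower genes (-1.55 and -1.25), though their ends had similar medians (*Apoe* 0.0312 and 0.072, *Igfbp5* 0.0862 and 0.185), the difference lying in the cells with high values. Of 12 valve markers 11 were compared, 3 lower (27.3%) and 0 higher, against 3.65% and 2.71% of all genes, with a median of -0.30. The lower ones were *Plat*, the tissue plasminogen activator (-1.29), *Gsn*, the actin-severing gelsolin (-0.99), and *Gata2* (-0.66). The valve median was 0.08 within cells with *Xist* alone and -0.03 within cells with a Y-linked gene alone.

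**Figure D4:**
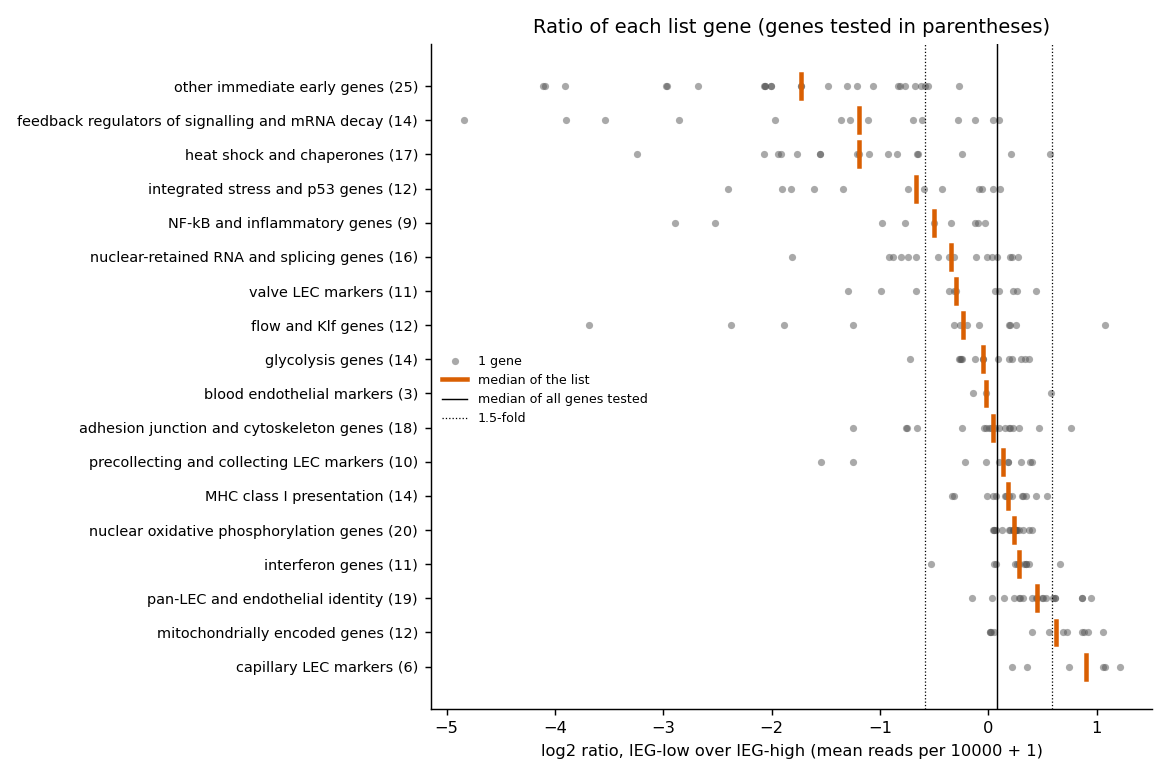
Log2 ratio of IEG-low over IEG-high cells for each gene compared (grey points) in 18 gene lists, with the list's median in orange, the median of all 5426 genes as a solid line and 1.5-fold as dotted lines. IEGs, feedback regulators and chaperones lie far to the left (medians -1.73, -1.20 and -1.19), and capillary LEC and mitochondrially encoded genes to the right (0.90 and 0.63).

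Mitochondrially encoded and nuclear respiratory genes differed in their counts. Of 12 mitochondrial genes compared 6 were higher and 0 lower, against 2.71% and 3.65% of all genes, with a median of 0.63. *mt-Nd2*, a subunit of complex I, ranged from 0.285 to 4.09 in IEG-low cells (median 2.48) and from 0 to 3.60 in IEG-high cells (median 1.83), with a ratio of 1.06. *mt-Nd5* had 0.92 and *mt-Cytb* 0.88. *mt-Co3*, *mt-Atp6*, *mt-Atp8* and *mt-Nd4l* had ratios of 0.05 or less, and *mt-Co3* averaged only 0.0746 and 0.0382 reads per 10000, a level at which the added 1 hides a difference. The 20 nuclear genes of oxidative phosphorylation had 0 past 1.5-fold and a median of 0.24. In the 73 IEG-low cells with *Malat1* of at least 1 the mitochondrial median was 0.62, against the 85 IEG-high cells. It came within 1.5-fold in 7 of the 18 other settings, such as 0.43 against all other cells, 0.51 within cells with *Xist* alone and 0.55 after centring. The authors removed cells above 10% mitochondrial reads before deposit, which bounds these values.

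Housekeeping groups were mostly level. Of the ribosomal protein genes compared, 0 were past 1.5-fold in either direction, and their median was 0.05. Of 14 glycolysis genes 1 (7.14%, against 3.65% of all genes) was lower, *Pfkfb3*, the activator of phosphofructokinase in endothelial cells (-0.73). The glycolysis median was -0.05. Genes of MHC class I presentation (14 compared, median 0.18) had 0 past 1.5-fold, *B2m*, the light chain, having 0.55. Among 11 interferon genes 1 (9.09%, against 2.71% of all genes) was higher, *Bst2*, the viral tether (0.67), and 0 were lower. The interferon median was 0.28, and *Isg15* had -0.53. Among the interferon genes that missed the filter, *Ifit3* was found in 20 IEG-low and 5 IEG-high cells (means 0.631 and 0.182 reads per 10000), *Zbp1* in 24 and 19, *Ifit1* in 16 and 17 and *Rtp4* in 16 and 19. *H2-Q4* (-0.33), *H2-Q6* (-0.31) and *H2-Q7* (0.04) share reads with near-identical genes and are uncertain.

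Cytoskeletal and nuclear RNA lists held a few lower genes each. Tropomyosin 3 (*Tpm3*) was found in every cell of both ends, ranged from 0.0377 to 3.13 (median 1.99) and from 1.11 to 4.48 (median 2.92), and had a ratio of -1.25. The tubulins *Tuba1b* (-0.76), *Tubb2a* (-0.76) and *Tuba1a* (-0.66) were the other lower genes of 18 compared, and *Itgb1*, the beta 1 integrin, was the 1 higher (0.76). In this list 22.2% were lower and 5.56% higher, against 3.65% and 2.71% of all genes. Of 16 nuclear-retained RNAs and splicing genes 6 were lower (37.5%) and 0 higher, with a median of -0.34. *Neat1*, the scaffold of paraspeckles, ranged from 0.0481 to 4.57 in IEG-low cells (median 2.35) and from 0.952 to 5.34 in IEG-high cells (median 3.49), a ratio of -1.81 that was -1.61 without the 12 cells of low *Malat1*. *Srsf2* (-0.88), *Srsf7* (-0.80), *Ddx5* (-0.74) and *Srsf3* (-0.67) were also lower, whereas *Malat1* itself had -0.32, and -0.11 without the 12 cells. Without those cells the medians were -1.59 for IEGs, -1.15 for feedback regulators, -1.10 for chaperones, 0.45 for pan-LEC and 0.94 for capillary genes. Of 12 cell cycle genes only *Pcna* (-0.68) and *Tyms* (-0.04) passed the filter, and the division marker *Mki67* was found in 1 and 4 cells.

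The members varied among themselves. Averaged over the 25 IEGs compared, an IEG-low cell had between 0.0195 and 0.725 (median 0.282) and an IEG-high cell between 0.735 and 1.86 (median 1.35), so these means did not overlap. Means of the 14 feedback regulators did not overlap either (0.0335 to 0.818 and 0.932 to 1.84). Chaperone means overlapped between 1.28 and 1.66, with medians of 1.01 and 1.72. For pan-LEC genes the ranges were 1.06 to 2.26 (median 1.93) and 0.736 to 2.04 (median 1.65), and for capillary genes 0.0180 to 2.42 (median 1.33) and 0 to 2.06 (median 0.625). Interferon genes spread more among the IEG-low cells, from 0.0122 to 2.35 (SD over cells 0.413), than among the IEG-high cells, from 0.0312 to 1.53 (SD 0.335). The nuclear RNA list showed the lowest cells of the IEG-low end most clearly, from 0.263 to 2.13 against 1.29 to 2.55.

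When all cells were ranked by the score and cut into 10 bins of 84 or 85, the lists differed along the whole range. The mean of the other IEGs was 0.307, 0.430, 0.607, 0.862 and 1.02 in the first 5 bins and 1.08 to 1.33 in the last 5. Most of the difference thus lay among the first 5 bins. Their mean scores ran from 0.207 to 2.22, a wider span than the 2.54 to 3.59 of the last 5. *Socs3* went from 0.353 in the first bin to 2.52 in the fourth and 3.63 in the tenth. Chaperones went from 0.983 through 1.35 in the fourth bin to 1.75. Pan-LEC genes stood at 1.88, 1.88 and 1.86 in the first 3 bins and at 1.61 in the last, and capillary genes went from 1.06 in the fifth bin to 0.756 in the seventh, with an SD over cells of 0.666 to 0.779 in the end bins. *Lyve1* had its largest mean, 1.88, in the second bin, and *Aqp1*, 2.36, in the first. Set against the cells between the ends, the median IEG ratio was -1.21 for IEG-low and 0.37 for IEG-high cells. For pan-LEC genes these were 0.24 and -0.26, so there the 2 ends lay about equally far from the middle.

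**Figure D5:**
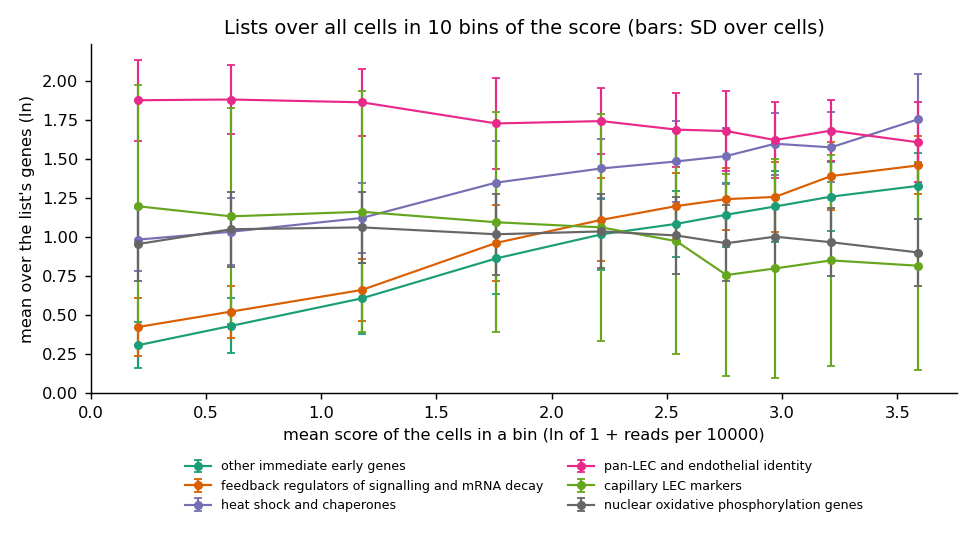
Mean ln value over the genes of 6 lists in 10 bins of all cells ranked by the score, against the mean score of each bin; bars are the SD over the cells of a bin. Other IEGs and feedback regulators differ mostly among the first 5 bins (0.307 to 1.02 for IEGs), which also span more of the score. Chaperones differ throughout, and pan-LEC and capillary genes are lower at high scores.

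Ends drawn within runs of column numbers (83 cells each, 63 of the 85 members shared) gave medians of -1.74 for IEGs, -1.04 for feedback regulators, -1.13 for chaperones, 0.41 for pan-LEC and 0.87 for capillary genes. The lowest and the highest 10% of the cells with a Y-linked gene alone (48 cells each) gave -1.60, -1.10, -1.15, 0.46 and 1.01. Those of the cells with *Xist* alone (17 cells each) gave -1.33, -0.81, -0.83, 0.38 and 1.33, with scores up to 0.251 in the low and from 3.16 in the high cells. In 71 pairs of 1 IEG-low and 1 IEG-high cell matched on total reads within 1.2-fold, the medians were -1.71, -1.22, -1.19, 0.40 and 0.87. In each of these settings the 5 medians had the sign they had over all cells; genes per cell were not matched.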

How the data were processed

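Smart-seq3 data of 842 adult cells from 1536 listed wells were used. Per the methods, STAR mapped the reads to mm10 and featureCounts assigned them to genes; the authors left out cells under 2000 genes or above 10% mitochondrial reads and deposited natural log values of 1 plus reads per 10000 (Seurat 4.1.0). The methods name log2, but the exponential minus 1 sums to 10000 in every cell. Strand, multi-mapping and annotation release are not given in the sources used here. Reads, not molecules, are counted. The exact intervals are binomial, on numbers of cells. They treat cells of 1 pool as independent draws and cover counting error only, with no error between animals. Whole reads were recovered from the smallest value of each cell (100% of values whole within 0.01) and used for depth and thinning.

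Cells were ranked by the mean of the 8 rule genes, and the 85 lowest and 85 highest were compared by mean reads per 10000 with a pseudocount of 1 (log2 ratio), over genes found in at least 30% of cells; 672 cells lay between the ends, and 198 genes were lower and 147 higher past 1.5-fold. With 1 pooled sample, no test was made. The members and the 25 gene lists were chosen with earlier results of these data known. Named genes are the 12 most negative and 12 most positive ratios without mitochondrial, ribosomal protein, Gm and Rik genes, and list genes. Rare genes, the sex-chromosome genes, *Malat1* and the *Lyve1* classes are described beside them. Alternatives changed the pseudocount, filter, depth, choice of members, reference cells and fold. The following were added after seeing the data: ranking within runs of 96 column numbers and within *Xist* or Y-linked classes, leaving out cells of low *Malat1* or few genes, centring, and totals without the rule genes. Coordinates are from GENCODE M21 (GRCm38; 5372 of 5426 genes matched), promoters from RefSeq. Steps were tested on simulated data, with changes planted only in well-expressed genes and cells assigned to the ends at random. Changes in sparse genes and ends chosen by expression were not simulated. Python 3.11.15, NumPy 2.4.6, pandas 2.3.3, SciPy 1.17.1 and matplotlib 3.10.9 were used.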

Additional observations from a re-analysis of the deposited data

How the results depend on the processing

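The share of lower genes (3.65%) was 9.71% with a pseudocount of 0.1, 2.40% against all other cells, 1.70% past 2-fold, 8.0% past a log2 ratio of 0.3 and 1.02% of the 21447 genes left by no filter, and stayed within 1.5 times otherwise. The share of higher genes (2.71%) moved more. It was 18.6% with a pseudocount of 0.1, 0.751% of the unfiltered genes, 0.719% by the difference of mean ln values, 1.01% with 2 times as many cells at each end, 0.627% against all other cells, 4.11% among members with *Lyve1* of at least 1, 5.25% among those below 1, 8.18% within cells with *Xist* alone, 4.2% within cells with a Y-linked gene alone, 1.57% after centring, 0.221% past 2-fold and 17.2% past 0.3. By mean ln values 74.7% of the lower and 24.5% of the higher genes were past 1.5-fold again.

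Over 18 settings, 92.9% of the medians of 18 lists kept to their side of 1.5-fold, 18 came within it, 5 moved past it, and no median past it changed sign. Of the values of the 24 named genes 98.4% kept to their side, 6 came within 1.5-fold (*Aqp1*, *Kcnj8*, *Lyve1* and *Angpt2*) and 1 changed sign, *Lyve1* in members with *Lyve1* below 1 (-0.13), a setting that selects on the gene itself. Leaving out 1 rule gene at a time kept 76 to 84 of the 85 members, the choice at 20000 reads 78 and z-scores 81. No paired analysis was possible because all cells are 1 pooled sample without replicates to pair and the result comes from no test; cells paired on total reads are not replicates. The added 1 limits ratios of genes under 1 read per 10000, and SDs over cells hold no error between animals.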
